A study of Mus musculus with 3 samples.

Results

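Polycomb repressive complexes are multi-subunit enzymes that keep developmental genes silent by modifying histones. PRC2 methylates lysine 27 of histone H3 through EZH1 or EZH2, which work only when bound to EED and SUZ12. PRC1 ubiquitinates histone H2A through RNF2 or RING1, each paired with 1 of 6 PCGF proteins that sets the type of PRC1. In pluripotent cells both complexes occupy the promoters of lineage regulators, and the PRC2 mark also covers the inactive X chromosome.

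The 10 genes described here were *Ezh1*, *Ezh2*, *Eed*, *Suz12*, *Jarid2*, *Mtf2*, *Phf19*, *Rnf2*, *Pcgf2*, and *Pcgf6*. They were taken by gene name from the 55421 named genes of the count table, and each matched a single gene. The RNA-seq data comprised replicates 1, 2, and 3 of ALSCs, which are stem cells derived with Activin A and LIF from the epiblast of embryonic day 6.5 mouse gastrulae on fibronectin-coated dishes. The embryos came from ICR females mated with males that carried the GOF/GFP transgene, a GFP reporter of *Oct4* that lacks part of its enhancer region, and this background was shared by all 3 libraries. Neither the labels nor the methods say whether the libraries came from separate lines. The p-values therefore say only whether these samples differed beyond counting error. The count columns are named EPI_AL with the numbers 1 to 3, and were matched to the ALSC samples by AL and these numbers. The study also describes epiALSCs, epiblast stem cells moved to the same medium, so the identity of the columns is inferred from their names. No other cell type was analysed, so nothing was tested between conditions.

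The libraries held 18037342 to 18724038 counts on named genes. FPKM is the count per kilobase of gene length and per 1000000 counts on named genes, and 3 counts on a gene, the limit that a count of 0 allows, were worth at most 0.0472 FPKM on *Pcgf2*, the shortest of the 10 genes. Such limits cover counting error only. The labelled cell type was checked with markers. All 7 epiblast markers were at 1 FPKM or more in every library, with *Pou5f1* (*Oct4*) at 648 FPKM on average. The lowest of them were *Fgf5* at 3.89 FPKM and *Otx2* at 5.08 FPKM, below the neural marker *Sox1* at 8.18 FPKM. None of 4 naive, 5 trophoblast, and 6 extraembryonic endoderm markers reached 1 FPKM in all libraries, while 1 of 6 fibroblast, 1 of 4 mesoderm, and 1 of 4 neural markers did (*Col1a1*, *Eomes*, and *Sox1*). The summed level was 1372 to 1398 FPKM for the epiblast markers, 1.009 to 1.32 for naive, 4.18 to 6.5 for fibroblast, 0.691 to 1.02 for trophoblast, 0.455 to 0.587 for extraembryonic endoderm, 2.59 to 3.33 for mesoderm, and 9.28 to 10.6 for neural markers. The fibroblast markers *Dcn* and *Lum* had no count in any library. Replicate 1 stood apart from the other libraries. Among genes whose counts averaged 100 or more, in the shortest 20th the median log2 ratio of replicate 1 to replicates 2 and 3 was 0.39, and in the longest 20th it was -0.53. Calls on the 10 genes are given with and without it.

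All 10 Polycomb genes reached 1 FPKM in each of the 3 libraries, against 20.1% of all named genes. The named genes include pseudogenes and noncoding RNAs, so this share is not that of protein-coding genes. The median level of the 10 Polycomb genes was 22.4 FPKM, where the 11125 genes that reached 1 FPKM everywhere had a median of 8.21 FPKM. Of the 10 genes, 6 lay above 20.6 FPKM, the upper quartile of those 11125 genes. The levels ran from 54.2 FPKM for *Suz12* down to 3.11 FPKM for *Ezh1*. Of the 9 pairs of neighbours in this order, 6 had ranges that did not overlap. The other 3 pairs, *Ezh2* and *Eed*, *Rnf2* and *Jarid2*, and *Jarid2* and *Mtf2*, had overlapping ranges. Within libraries, *Ezh2* was above *Eed* and *Jarid2* above *Mtf2* in 3 of 3, and *Rnf2* above *Jarid2* in 1 of 3, and 3 libraries cannot bring a two-sided sign test below p = 0.25 (exact).

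**Figure D1:**
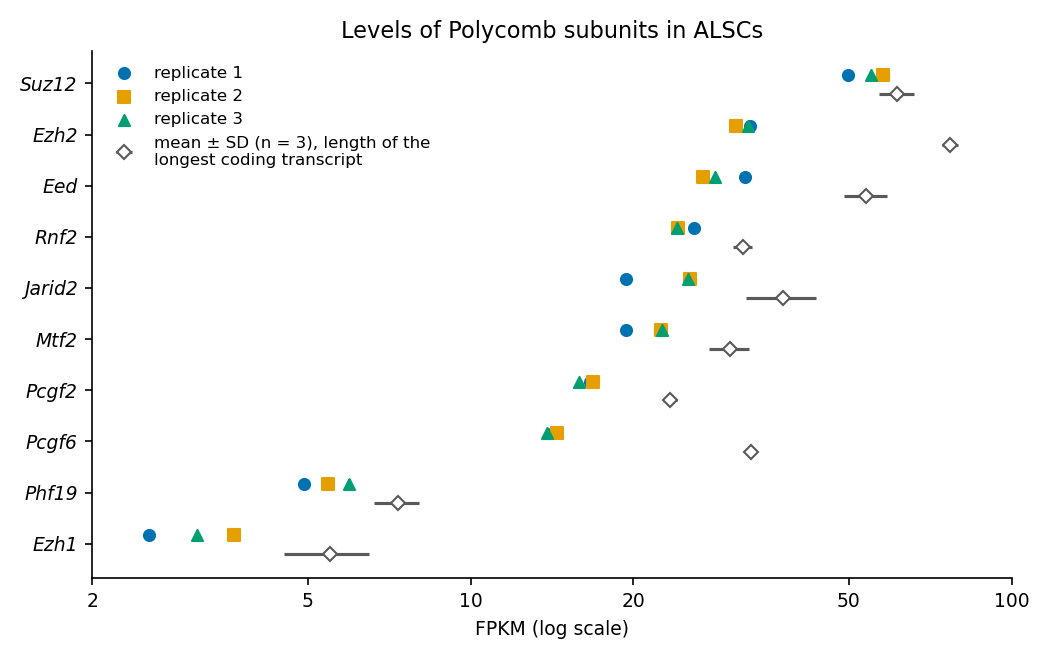
FPKM of the 10 Polycomb subunits in each of the 3 ALSC libraries (filled symbols, gene length of the deposited table) and mean ± SD with the length of the longest coding transcript (open diamonds, n = 3), on a log axis. *Phf19* and *Ezh1* sat lowest on both lengths, while the first place passed from *Suz12* to *Ezh2* with the transcript length.

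*Suz12* (ENSMUSG00000017548; GRCm38 chromosome 11, 79993106 to 80034123), the scaffold of PRC2, reached 49.9, 57.8, and 54.9 FPKM in replicates 1, 2, and 3. Among the 10 genes it ranked first in each library, and its lowest library was above the highest library of any other of the 10. Its mean of 54.2 ± 4.003 FPKM (SD, n = 3) exceeded the means of 90.0% of the 11125 genes.

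*Ezh2* (ENSMUSG00000029687; chromosome 6, 47530139 to 47595341), the main methyltransferase of PRC2 in dividing cells, was at 32.9, 30.9, and 32.6 FPKM. *Eed* (ENSMUSG00000030619; chromosome 7, 89954654 to 89980983), which binds the methylated histone and stimulates the enzyme, was at 32.1, 26.9, and 28.3 FPKM. The level of *Ezh2* was the higher one in 3 of 3 libraries, but the ranges of the libraries overlapped. The paralog *Ezh1* (ENSMUSG00000006920; chromosome 11, 101191115 to 101226463), which is a weaker enzyme and prominent in resting cells, was at 2.55, 3.66, and 3.13 FPKM. It was the lowest of the 10 genes in all 3 libraries, higher than 21.7% of the 11125 genes.

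Within each library, *Ezh2* exceeded *Ezh1* by 12.9-fold, 8.45-fold, and 10.4-fold in replicates 1, 2, and 3, on average by 10.6 ± 2.23-fold (SD, n = 3) on the FPKM scale. *Ezh2* thus took 91.1 ± 1.70% of the summed FPKM of both genes. Cut into all words of 50 bases, the longest coding transcript of *Ezh2* was unique among annotated genes for 98.4% of its words and that of *Ezh1* for 100%.

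The core of PRC2 holds EZH, EED, and SUZ12 in equal numbers, together with RBBP4 or RBBP7, histone chaperones that other complexes use as well. The transcripts were not equal on the FPKM scale. *Suz12* exceeded *Ezh2* by 1.69 ± 0.176-fold and *Eed* by 1.88 ± 0.302-fold (SD, n = 3), with *Suz12* higher in every library. The sum of *Rbbp4* and *Rbbp7* exceeded *Suz12* by 3.15 ± 0.422-fold. *Rbbp7* was at 105 FPKM and *Rbbp4* at 64.7 FPKM on average, but their transcripts were unique for only 66.2% (*Rbbp4*) and 84.9% (*Rbbp7*) of such words, so part of their reads is uncertain.

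The order of the core depended on the gene length used. The length in the deposited table is that of all annotated exons merged, and it was the same as the merged exon length of GENCODE M21 for all 10 genes. For *Ezh2* it is 6678 bases, while the longest coding transcript has 2787 bases. With transcript lengths, *Ezh2* was highest at 76.9 ± 2.51 FPKM, *Suz12* followed at 61.3 ± 4.53 FPKM, and *Eed* was at 53.9 ± 5.003 FPKM (SD, n = 3). *Suz12* was then at 0.799 ± 0.083 of the level of *Ezh2*, below it in every library. The ratio of *Ezh2* to *Ezh1* rose from 10.6 to 14.3. On both lengths, *Ezh2*, *Suz12*, and *Eed* were the 3 most abundant of the 10 genes. Of the 10 genes, 7 had another rank with transcript lengths. *Pcgf6* went from rank 8 to 5, above *Rnf2* and *Mtf2*, and *Rnf2* from 4 to 6, while *Eed*, *Phf19*, and *Ezh1* kept ranks 3, 9, and 10. Levels between these genes are therefore ordered only as far as both lengths give the same order.

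Around the core, accessory subunits bring PRC2 to chromatin and define separate forms of the complex. *Jarid2* (ENSMUSG00000038518; chromosome 13, 44729474 to 44921643), a relative of histone demethylases without enzyme activity, was at 19.4, 25.5, and 25.2 FPKM. Replicate 1 was the low library, and the other libraries were alike. *Aebp2*, the zinc finger protein found with JARID2 in the same form of PRC2, was at 9.56 FPKM on average, so that *Jarid2* exceeded it by 2.44 ± 0.210-fold (SD, n = 3).

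The other form of PRC2 holds 1 of 3 Polycomb-like proteins, which bind unmethylated CpG-rich DNA. *Mtf2* (ENSMUSG00000029267; chromosome 5, 108065674 to 108109004) was at 19.4, 22.5, and 22.5 FPKM. *Phf19* (ENSMUSG00000026873; chromosome 2, 34893757 to 34914026) was at 4.92, 5.46, and 5.95 FPKM. The third gene of the family, *Phf1*, stayed near 1 FPKM, with 81, 57, and 63 counts. *Mtf2* took 76.7 ± 1.15% of the summed FPKM of the family, *Phf19* 19.4 ± 0.643%, and *Phf1* 3.82 ± 1.06% (SD, n = 3). The order was the same in every library, although 82.1% of the words of *Phf1* were unique. *Mtf2* exceeded *Phf19* by 3.95 ± 0.163-fold, a ratio that moved little with transcript lengths, to 4.11 ± 0.17-fold.

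The transcripts of both forms were compared by their summed levels, which do not measure the complexes themselves. *Mtf2*, *Phf19*, and *Phf1* together were at 0.906, 0.810, and 0.843 of the sum of *Jarid2* and *Aebp2* in replicates 1, 2, and 3. With transcript lengths this ratio was 0.727 ± 0.041 on average, against 0.853 ± 0.0486 (SD, n = 3). Without division by length it was 0.480 on average. *Epop*, which encodes a partner of the Polycomb-like form, was at 49.9, 41.2, and 41.3 FPKM, above *Mtf2* in every library. Of the 8 other PRC2 genes, 4 reached 1 FPKM in every library (*Rbbp7*, *Rbbp4*, *Epop*, and *Aebp2*). *AU022751*, the mouse gene of the PRC2 inhibitor EZHIP, was the lowest with 3, 3, and 12 counts.

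*Rnf2* (ENSMUSG00000026484; chromosome 1, 151458004 to 151500955) encodes RING1B, the main ubiquitin ligase of PRC1 in pluripotent cells. It was at 25.9, 24.1, and 24.1 FPKM, a narrow range in which replicate 1 was highest. Its paralog *Ring1* was at 4.93, 4.81, and 4.65 FPKM, so that the ranges lay far apart. *Rnf2* exceeded *Ring1* by 5.15 ± 0.118-fold and took 83.7 ± 0.313% of the summed FPKM of the pair (SD, n = 3).

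The PCGF partner decides between canonical PRC1, which reads the PRC2 mark through CBX proteins, and variant forms with RYBP or YAF2. *Pcgf2* (ENSMUSG00000018537; chromosome 11, 97688823 to 97700497), also named *Mel18*, belongs to canonical PRC1 and was at 16.6, 16.9, and 15.9 FPKM. *Pcgf6* (ENSMUSG00000025050; chromosome 19, 47033617 to 47050906), the PCGF gene of the variant form with MGA, MAX, L3MBTL2, and E2F6, was at 14.2, 14.4, and 13.9 FPKM. The 2 ranges did not overlap, and *Pcgf2* was higher in each library by 1.16 ± 0.0128-fold (SD, n = 3). This order turned with the transcript lengths, on which *Pcgf2* was at 0.708 ± 0.0078 of *Pcgf6*, so the data do not place one above the other.

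Among the 6 PCGF genes, *Pcgf2* took 34.8 ± 0.686% of the summed FPKM and *Pcgf6* 30.0 ± 0.882% (SD, n = 3). *Pcgf1* followed at 17.2%, *Pcgf3* at 13.5%, *Pcgf5* at 3.29%, and *Bmi1* (also *Pcgf4*) at 1.21% on average. *Bmi1*, which is the other PCGF gene of canonical PRC1, had 43, 41, and 41 counts and was under 1 FPKM in every library. *Pcgf2* exceeded it by 28.7 ± 1.64-fold (SD, n = 3). With transcript lengths, *Pcgf6* took 40.0% and *Pcgf2* 28.3%, and both stayed above the other 4 genes.

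**Figure D2:**
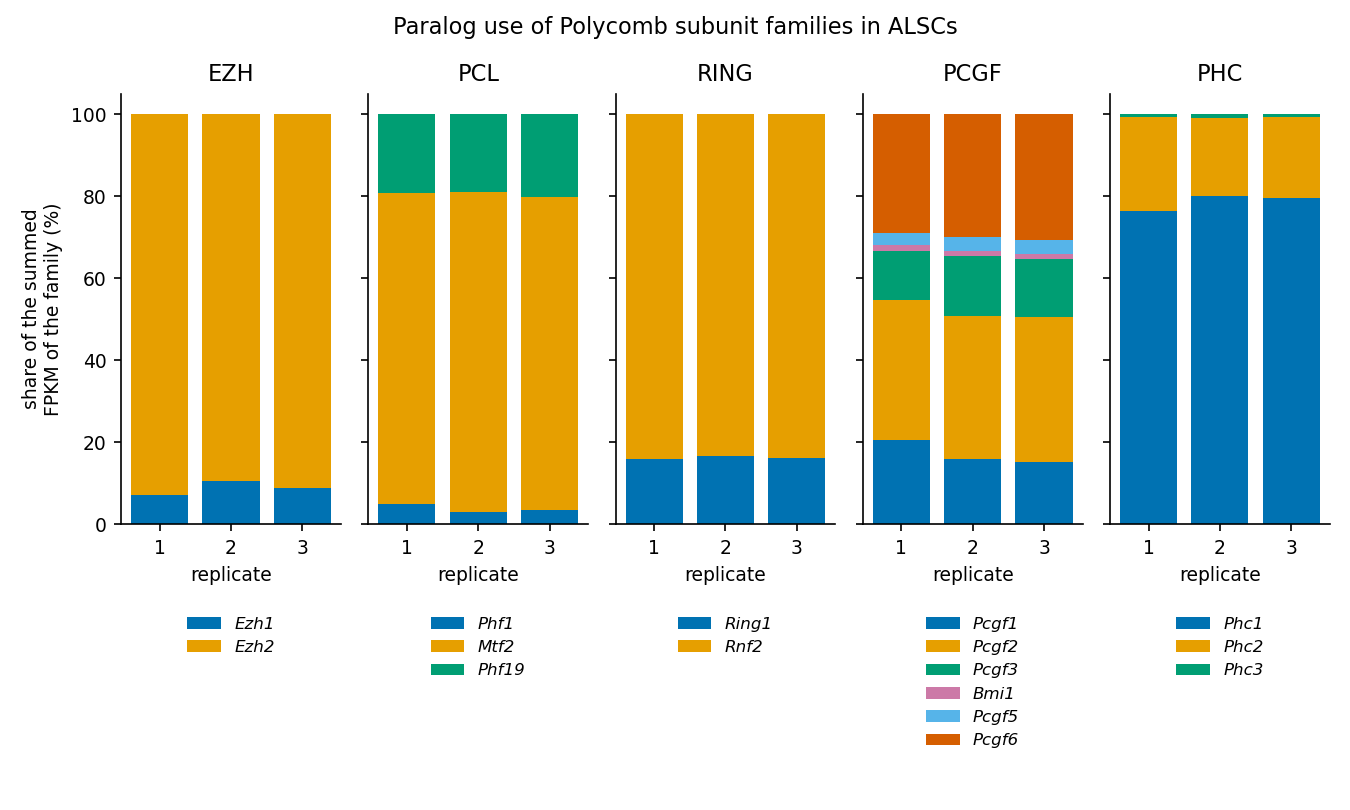
Share of the summed FPKM of 5 paralog families (%) taken by each gene, with 1 bar for each ALSC library. *Ezh2* took 89.4 to 92.8%, *Mtf2* 75.8 to 78.0%, and *Rnf2* 83.4 to 84.0% of its family, while *Pcgf2* took 34.0 to 35.4% and *Pcgf6* 29.1 to 30.8% of the PCGF genes.

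Of the 32 other genes of PRC1 and its associated factors, 26 reached 1 FPKM in every library. The highest was *Skp1a*, an adaptor that many ubiquitin ligases share, at 169 ± 23.5 FPKM, and the lowest *Scml2*, with 2, 2, and 1 counts. Among the CBX genes, *Cbx7* was at 16.3 FPKM, *Cbx2* at 15.5, and *Cbx6* at 6.89 on average, while *Cbx8* was under 1 FPKM in every library. Among the polyhomeotic genes, which let canonical PRC1 polymerise, *Phc1* took 78.6 ± 2.06% of the summed FPKM (SD, n = 3). *Yaf2* was at 19.05 and *Rybp* at 11.2 FPKM on average.

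To ask whether a gene's counts differed between libraries beyond sampling noise, a chi-square test of homogeneity compared them with the TMM library sizes, with Benjamini-Hochberg adjustment over all 16944 genes tested. The test compares these libraries and covers counting error only. It was passed by 7 of the 10 Polycomb genes, against 47.2% of all genes tested and 71.3% of the 8183 genes whose counts averaged 300 or more. All 10 Polycomb genes had more than 300 counts on average, so their share was close to that of genes of like depth. The other 3 genes were *Pcgf2*, *Pcgf6*, and *Phf19* (adjusted p = 0.246, 0.374, and 0.0949, chi-square test).

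The differences were small in size. Between the highest and the lowest library, TMM-scaled levels differed by 1.07-fold for *Pcgf6* to 1.36-fold for *Ezh1*. The coefficient of variation, the SD as a share of the mean, was 6.39% at the median of the 10 genes, against 10.2% at the median of the 8183 genes. *Ezh1* had the largest at 15.2%, where counting error alone gives 4.85%. *Eed* and *Jarid2* followed at 12.3% and 12.1%, and *Pcgf6* had the smallest at 3.20%, close to its counting error of 2.77%.

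**Figure D3:**
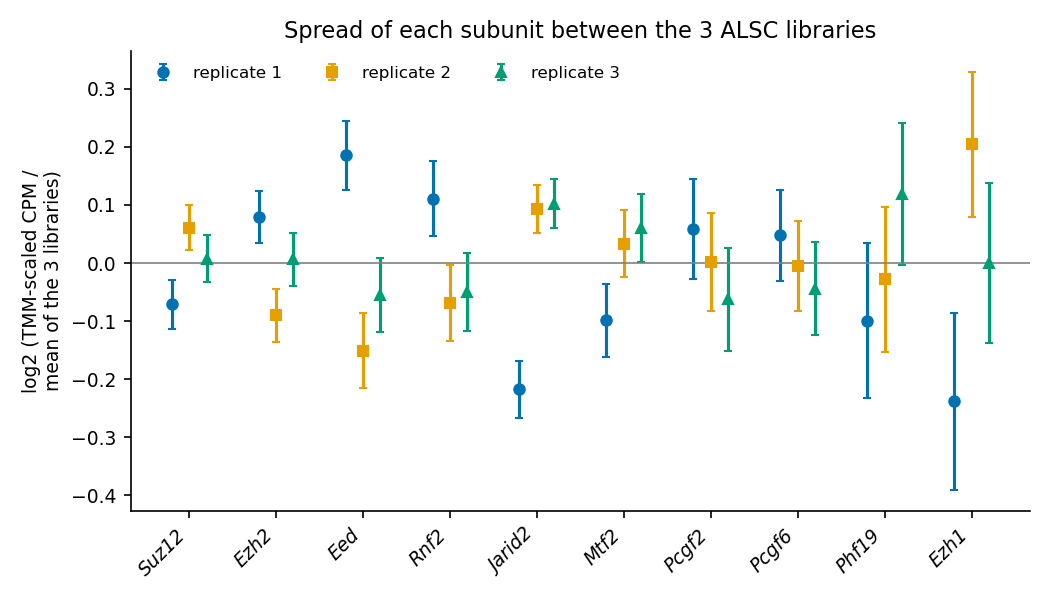
TMM-scaled counts (CPM) of each gene in each library as log2 ratio to the mean of the 3 libraries, with bars for the 95% counting error. Replicate 1 (circles) was the highest library for *Eed* and the lowest for *Jarid2* and *Ezh1*, and the bars of *Pcgf2* and *Pcgf6* overlapped in all libraries.

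On the TMM scale, replicate 1 was one end of the range for each of the 10 genes, highest for 5 and lowest for 5. The test was passed with the lowest level in replicate 1 by 4 genes (*Jarid2*, *Suz12*, *Mtf2*, and *Ezh1*; 22.1% of all genes tested did so). It was passed with the highest level in replicate 1 by 3 genes (*Eed*, *Ezh2*, and *Rnf2*; 22.2% of all genes tested). Without replicate 1, only *Ezh2* passed (adjusted p = 0.0423, chi-square test), against 8.11% of all genes. *Ezh2* and *Ezh1* did not pass without replicate 2 (adjusted p = 0.0593 and 0.0536, chi-square test), while *Phf19* then did (adjusted p = 0.0429), which left 6 of 10, against 42.9% of all genes. Without replicate 3 the same 7 of 10 passed, against 46.7%. Thus 6 of the 7 calls rest on replicate 1.

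*Jarid2* showed the strongest call, with 3412, 4631, and 4423 counts in replicates 1, 2, and 3 (adjusted p = 2.25e-25, chi-square test). Its log2 ratio of replicate 1 to replicates 2 and 3 was -0.32, and -0.03 after the trends on gene length and GC content over all genes had been removed. *Jarid2*, with 9715 bases of merged exons, is the longest of the 10 genes. *Ezh1*, with 7440 bases, moved likewise from -0.34 to -0.11.

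*Eed* had the highest log2 ratio of replicate 1 among the 10 genes, with 2224, 1928, and 1954 counts (adjusted p = 4.77e-13, chi-square test). The ratio was 0.29, and 0.21 with both trends removed. *Ezh2* had 3970, 3866, and 3921 counts (adjusted p = 6.42e-06, chi-square test). Its log2 ratio of 0.12 became 0.23. *Suz12*, with 4466, 5356, and 4898 counts, went the other way, from -0.11 to -0.16 (adjusted p = 0.000132, chi-square test). The core subunits thus did not move together in replicate 1, where *Eed* was higher and *Suz12* was lower than in the other libraries on the TMM scale. *Ezh2* was also highest there, but replicate 1 alone did not set it apart. It did not pass without replicate 2 (adjusted p = 0.0593, chi-square test) and did pass without replicate 1 (adjusted p = 0.0423, chi-square test). The ratio of *Suz12* to *Eed* was 1.55 in replicate 1 and 2.15 and 1.94 in replicates 2 and 3. The part of gene length in these differences was not tested beyond the values given.

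**Figure D4:**
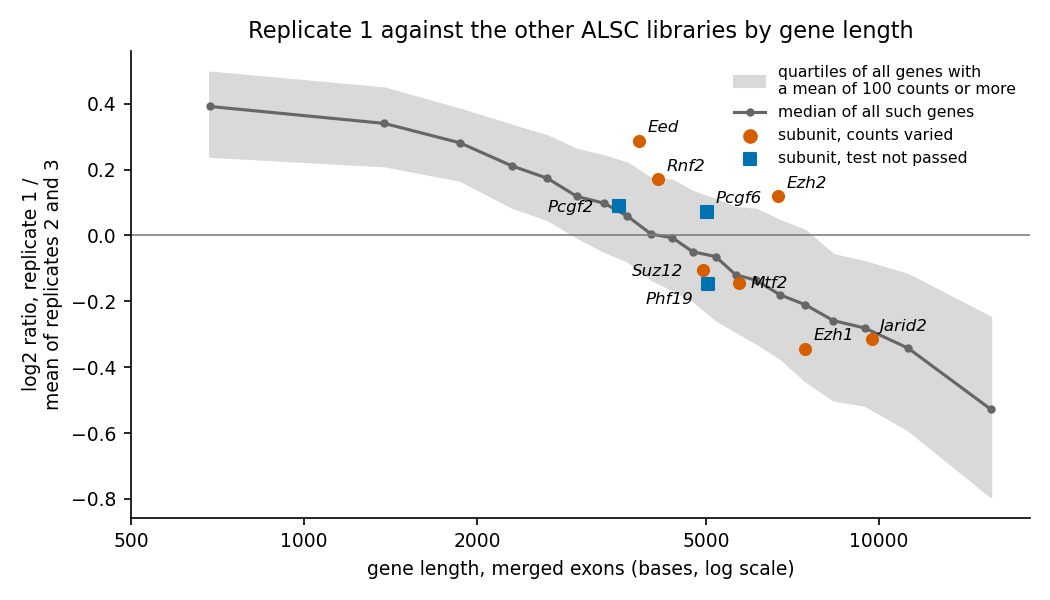
Log2 ratio of replicate 1 to the mean of replicates 2 and 3 (TMM-scaled) against gene length in bases on a log axis, for the 10 Polycomb genes (points) and for all genes averaging 100 counts or more (line for the median and band for the quartiles in 20 groups by length). The line falls from 0.39 to -0.53, *Jarid2* lies close to it, and *Eed* and *Ezh2* lie above it.

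Some counts can include reads of other genes. *Mtf2* shares 395 exon bases with *Tmed5* on the opposite strand, which had 700, 676, and 635 counts. *Rnf2* shares 158 exon bases with *Trmt1l*, also on the opposite strand, and *Eed* 261 with the long noncoding RNA *E230029C05Rik*, which had at most 8 counts. No source says that strand was used in counting, and reads in these stretches cannot be told apart. The other 7 genes share no exon base with another annotated gene.

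The promoters were looked up in RefSeq (GRCm38.p6) as windows of 250 bases before and 50 bases after each start site, and the 10 genes matched 12 windows. Of all 32851 windows, the median held 7 CpG dinucleotides and the upper quartile 20. *Suz12* had 41 CpG, the most of the 10 genes, and *Ezh2* had 31 against 23 for *Ezh1*. *Pcgf2* had 10, the least of the first windows, and the second window of *Mtf2* had 2. The 250 bases before the start sites of the most and the least abundant gene on the FPKM scale, *Suz12* (plus strand, chr11:79992856-79993105) and *Ezh1* (minus strand, chr11:101226464-101226713), are shown 5′ to 3′, with a motif for E2F factors, the regulators of genes of cell division, in capitals.
Suz12: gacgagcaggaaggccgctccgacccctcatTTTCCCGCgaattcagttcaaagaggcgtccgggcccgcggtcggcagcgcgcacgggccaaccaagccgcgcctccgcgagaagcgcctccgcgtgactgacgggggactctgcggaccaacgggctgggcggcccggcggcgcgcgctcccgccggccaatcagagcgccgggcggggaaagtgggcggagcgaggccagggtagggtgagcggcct
Ezh1: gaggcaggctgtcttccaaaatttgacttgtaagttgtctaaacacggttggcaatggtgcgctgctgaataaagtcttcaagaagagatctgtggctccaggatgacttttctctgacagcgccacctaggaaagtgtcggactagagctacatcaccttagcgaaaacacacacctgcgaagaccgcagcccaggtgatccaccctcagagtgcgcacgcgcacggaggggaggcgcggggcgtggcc

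The E2F motif was searched on both strands as TTTCCCGC, TTTCGCGC, TTTGCCGC, or TTTGGCGC. It occurred in 3 of the 12 windows (*Ezh2*, *Suz12*, and *Phf19*) and in 2.26% of all windows. Each of these words holds a CpG, and the share over all windows was not matched for CpG content. The 3 windows held 31, 41, and 38 CpG, against a median of 7 over all windows. The motif CACGTG, to which MYC and MAX proteins bind and which reads the same on both strands, occurred in 1 of the 12 windows (*Pcgf2*) and in 7.15% of all windows. The 2 motifs share no bases in any of these windows. The 4 matches are shown with 10 bases on each side, 5′ to 3′ on the strand of the gene, with the match in capitals. They lie at chr6:47595010-47595037 for *Ezh2*, at chr11:79992877-79992904 for *Suz12*, at chr2:34914167-34914194 for *Phf19*, and at chr11:97699770-97699795 for *Pcgf2*. The match of *Ezh2* begins 4 bases into the transcript by the RefSeq start site. The gene used for the counts begins further upstream, at 47595341 on the minus strand, so the whole *Ezh2* window lies inside that gene.
Ezh2: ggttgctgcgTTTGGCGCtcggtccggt
Suz12: gacccctcatTTTCCCGCgaattcagtt
Phf19: tcaataattcGCGGGAAAacgcgaaaaa
Pcgf2: ggaatgaggtCACGTGggtgagtagt

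A match of letters describes the window and is not a measured binding site. *Ezh2*, *Suz12*, and *Phf19*, which hold the E2F motif, were at 32.1, 54.2, and 5.44 FPKM on average, so they did not share a level.

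Enzymes that remove the marks, and ASXL cofactors of one of them, were expressed beside the complexes. Of these 8 genes, 7 reached that level of 1 FPKM throughout. *Kdm6a*, a demethylase of histone H3 lysine 27, was at 9.40, 13.4, and 14.5 FPKM, and the related *Kdm6b* at 12.1, 21.6, and 20.2 FPKM. The sum of both demethylases was at 0.608, 1.01, and 0.972 of the summed *Ezh1* and *Ezh2* in replicates 1, 2, and 3. Replicate 1 was the low library there as well. With transcript lengths the ratio was lower, 0.441 ± 0.113 on average (SD, n = 3) against 0.864 ± 0.223. *Bap1*, the deubiquitinase of H2A, was at 33.0 ± 4.38 FPKM, and its partner *Asxl1* at 26.8 ± 7.35 FPKM (SD, n = 3). The test was passed by 6 of the 8 genes, against 47.2% of all genes tested and 71.3% of those averaging 300 counts or more. All 6 were lowest in replicate 1, as were 3751 of the 8003 genes that passed over all genes tested. Those 3751 genes were 22.1% of all genes tested. Across the 6 genes of this list, log2 ratios of replicate 1 to the others ran from -0.72 to -0.27. They ran from -0.49 to -0.13 with the trends on length and GC content removed. Without replicate 1 the test was passed by 1 of 8 (*Kdm6a*), against 8.11% of all genes.

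Of 18 genes known as Polycomb targets in pluripotent cells, 17 of them lineage regulators, 1 reached 1 FPKM in each library. This was *Irx3*, a homeobox gene of the neural plate, at 1.80, 1.86, and 1.91 FPKM. Of the others, 10 had at most 3 counts in every library, among them *Hoxa9*, *Olig2*, *Tbx5*, *Neurog1*, and *Hoxb13* with none. For *Hoxa9*, a count of 0 allows up to 0.0298 FPKM. *Gata6* had 11, 13, and 10 counts and *Pax6* had 9, 3, and 10. None of the 8 targets tested passed the chi-square test after adjustment, against 47.2% of all genes tested. Except for *Irx3* they had at most 26 counts in any library, too few for small differences to pass. *Cdkn2a*, an inhibitor of the cell cycle named here after its values were seen, had an unadjusted p under 0.05 (10, 2, and 4 counts, unadjusted p = 0.0258, chi-square test). The median of the targets was 0.036 FPKM, beside 22.4 FPKM for the 10 Polycomb genes. The targets were listed with earlier results of these data known, so this contrast is a description and not a test. No chromatin mark was measured in these libraries, so the levels do not tell which genes Polycomb held silent.

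**Figure D5:**
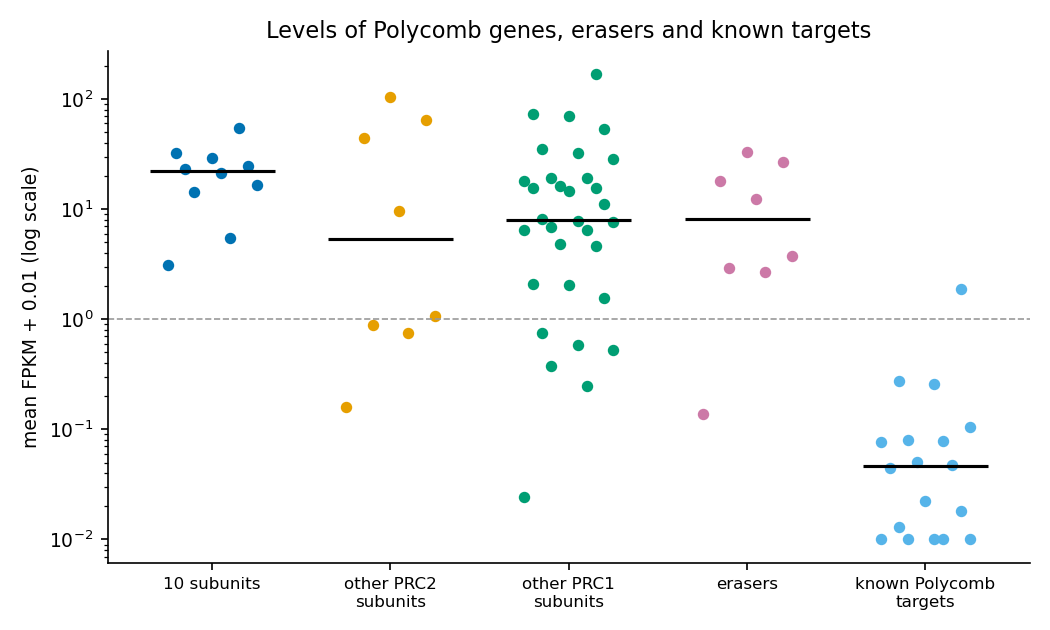
Mean FPKM plus 0.01 on a log axis of the 10 Polycomb genes, 8 other PRC2 genes, 32 other PRC1 genes, 8 erasers, and 18 known targets, with 1 point for each gene, a bar for the median, and a dashed line at 1 FPKM. The medians were 22.4, 5.30, 7.96, 8.10, and 0.036 FPKM.

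By the distance of log2(FPKM + 1) over the 3 libraries, the genes closest to *Ezh2* were *Gmps*, *Ddx52*, and *Coasy*, at distances of 0.022, 0.0409, and 0.0472. With 3 libraries of 1 condition this describes a like level only. *Xist*, the RNA that brings Polycomb complexes to the inactive X chromosome, was at 10.99, 25.3, and 19.98 FPKM in replicates 1, 2, and 3, and was lowest in replicate 1. Its log2 ratio of replicate 1 to the others was -0.97, and -0.55 with the trends removed. *Xist* also differed between replicates 2 and 3 (adjusted p = 1.47e-37 without replicate 1, chi-square test).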

How the data were processed

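The 3 ALSC libraries were prepared with an Illumina TruSeq kit that does not mark strand, and the authors mapped the paired-end reads to GRCm38. The submitters' processing notes name HISAT2 2.0.5, and the counting program, strand setting, and treatment of multi-mapped reads are not given in the sources used here. The authors deposited raw counts per gene with a gene length in bases and without normalization. The 3 other columns of counts match no sample of this series and were not used. Of the 55738 rows, 317 carry no gene name (0.165% to 0.182% of the counts) and were left out.

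FPKM was computed from the deposited counts, the table's length, and the total count on named genes. TMM factors were from edgeR 4.0.16, and size factors from DESeq2 1.42.0 were an alternative (R 4.3.3). The chi-square test took genes with at least 10 counts in total and a threshold of 0.05. It was run on simulated counts that held counting error only, apart from genes changed in a single library. Such counts lack other spread between libraries, so the simulation says nothing about that spread. Trends were medians in 20 groups by length and then by GC content over genes averaging 100 counts or more. Transcripts were from GENCODE M21, and motifs were searched by exact match. SciPy 1.17.1, NumPy 2.4.6, matplotlib 3.10.9, and pandas 2.3.3 ran under Python 3.11.15. Totals of 18037342 to 18724038 counts set the precision.

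The Polycomb genes and the gene lists were chosen with earlier results of these data known. By rule, all 10 genes were named, with the highest gene, the lowest gene, and paralogs of a member from the other lists and the 3 genes closest to *Ezh2*. Any other gene was named after its values were seen. Transcript lengths for the order and the levels were added after the data had been seen.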

Additional observations from a re-analysis of the deposited data

How the results depend on the processing

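No paired analysis was possible because there was 1 condition. The number of Polycomb genes that varied between libraries was 7 and ranged from 1 to 7 when single replicates were left out, and over all named genes it ranged from 1302 to 7490 against 8003. Both lows were those without replicate 1. With library totals in place of TMM sizes, *Rnf2* lost its call (adjusted p = 0.0881, chi-square test) and *Phf19* gained one (adjusted p = 0.0257). The ratio of *Ezh2* to *Ezh1* was 14.3 with transcript lengths and 8.17 with a pseudocount of 1 FPKM. With transcript lengths, the shares of the family were 93.3% for *Ezh2*, 6.69% for *Ezh1*, 80.6% for *Rnf2*, 28.3% for *Pcgf2*, and 40.0% for *Pcgf6*. Without division by length, they were 79.7% for *Mtf2*, 17.9% for *Phf19*, 86.8% for *Rnf2*, 25.7% for *Pcgf2*, and 31.6% for *Pcgf6*, and *Pcgf3* at 27.0% was then above *Pcgf2*. These moves follow from the length itself. All 10 genes passed 1 FPKM in each setting run at that level, and 8 passed the stricter level of 5 FPKM (not *Phf19* and *Ezh1*). Of the 9 pairs of neighbours in their order, 4 to 9 did not overlap, against 6, and 7 genes had another rank with transcript lengths or without division by length. The log2 ratios of replicate 1 of the 10 genes kept their sign with the trends removed, but 8 of them moved by more than their counting error. *Rnf2* went from 0.17 to 0.03 and *Phf19* from -0.15 to -0.05, both then within counting error (0.04 and 0.08). *Ezh2* and *Pcgf6* grew, from 0.12 to 0.23 and from 0.07 to 0.13. Other genes such as *L3mbtl2* (-0.11 to 0.06) and *Aebp2* (-0.10 to 0.08) changed sign. Transcript lengths turned the order of *Suz12* and *Ezh2* and of *Pcgf2* and *Pcgf6*. Depth limits the low genes only, since each of the 10 genes had at least 343 counts in every library.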

Other observations

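The partners of *Pcgf6* differed in how they varied between the libraries. *Mga*, the scaffold of this form of PRC1, was at 4.47, 9.65, and 9.14 FPKM in replicates 1, 2, and 3, a difference of 2.04-fold on the TMM scale (adjusted p = 1.76e-109, chi-square test). *Max*, its dimerization partner, was at 19.01, 20.2, and 18.6 FPKM, and *L3mbtl2* at 14.3, 16.3, and 16.1 FPKM, and neither passed the test (adjusted p = 0.294 and 0.0838). *E2f6* passed it at 13.3, 15.3, and 15.3 FPKM (adjusted p = 0.035, chi-square test) but not without replicate 1 (adjusted p = 0.877), and its log2 ratio of replicate 1 to the others was -0.13, or -0.00052 with the trends on length and GC content removed. *Mga*, with a log2 ratio of replicate 1 to the others of -1.004, kept -0.53 when the trends on length and GC content were removed. Without replicate 1 it did not pass (adjusted p = 0.444, chi-square test).

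Genes of the *Pcgf1* form of PRC1, which KDM2B brings to CpG islands, differed in opposite directions in replicate 1. *Pcgf1* was at 10.02, 7.64, and 6.825 FPKM, highest in replicate 1, while *Kdm2b* was at 5.48, 8.69, and 8.56 FPKM and *Bcor* at 4.53, 7.52, and 7.27 FPKM, both lowest there. The log2 ratios of replicate 1 were 0.54, -0.59, and -0.64, and 0.28, -0.21, and -0.35 with the trends removed. *Pcgf1* has 1649 bases of merged exons, and short genes as a group were higher in replicate 1. Without replicate 1 none of these genes passed (adjusted p = 0.614, 0.997, and 0.844, chi-square test). The transcript of *Pcgf1* was unique for 68.7% of its words of 50 bases. These genes were singled out after their values were seen.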
